A study of Arabidopsis thaliana with 6 samples.

Results

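The mitochondrial calcium uniporter (MCU) family of Arabidopsis was taken as the 6 loci AT5G66650, AT1G09575, AT1G57610, AT2G23790, AT4G36820 and AT5G42610, and the annotation of the ATH1 array gave a probe set of its own to 2 of them. These are AT5G66650 (probe set 247047_at, chromosome 5) and AT1G09575 (probe set 264512_at, chromosome 1). Both passed the minimum signal, so that they are 2 of the 15218 probe sets compared here. The other 4 loci are given no probe set by the annotation used and were not analysed here. The family was chosen with the difference of AT5G66650 between these arrays already known, so that the values of its members are given as a description and were not tested.

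RNA came from whole 10-day-old Col-0 seedlings grown on MS medium in constant light, and was hybridized to 6 arrays. Of these, 3 hold wild-type FRB1 seedlings and 3 hold seedlings of frb1-1, a line with a T-DNA insertion upstream of the FRB1 coding region; the labels call the replicates biological. The line is described as probably a partial loss of function, and no further allele was put on arrays. FRB1 encodes a Golgi protein of the DUF246 family that affects cell adhesion, and the arrays asked which transcripts differ when it is reduced. No probe set is named for FRB1 (AT5G01100), so that its own signal did not check the labels. Of 7 tested probe sets of loci numbered AT5G01000 to AT5G01200, around FRB1, 5 were lower in frb1-1 in the fit across all probe sets. The same fit called 0.0920% of everything tested as lower. Mean signals of these neighbours in frb1-1 were 17.4 to 69.7. The lowest thus reached the minimum signal only through the wild-type arrays, so that nothing is read from these calls. The part of FRB1 and that of these neighbours in any difference cannot be told apart with 1 line.

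MCU proteins form the pore through which calcium ions enter the matrix of mitochondria, driven by the electrical potential across the inner membrane. In animals the pore opens when calcium outside rises, under the control of MICU proteins that bind calcium with EF hands, and plants have a MICU gene as well. The Arabidopsis family holds several members. The product of AT1G09575 has been studied as a mitochondrial calcium channel, while that of AT5G66650 is also known as cMCU for its place in chloroplasts and has been linked to osmotic stress.

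AT5G66650 had a higher signal on each frb1-1 array than on any wild-type array. A signal is the MAS 5.0 intensity, not a log value, which the authors scaled to a target of 500 on each array. In wild-type seedlings it was 134, 168 and 196 on replicates 1, 2 and 3, with a mean of 166 ± 30.9 (SD, n = 3). In frb1-1 seedlings it was 644, 486 and 431 on replicates 1, 2 and 3, with a mean of 520 ± 111 (SD, n = 3). The ratio of the mean signals was thus 3.13. The lowest frb1-1 array had 2.19 times the signal of the highest wild-type array, and the highest frb1-1 array 4.79 times that of the lowest wild-type array, so that each of the 9 pairings of a mutant with a wild-type array gave at least a 2-fold ratio. All signals were above 64, or 6 on the log2 scale, the mean that a probe set had to reach to be compared.

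On the log2 scale, AT5G66650 averaged 7.36 ± 0.27 (SD, n = 3) over wild-type arrays and 9.00 ± 0.30 (SD, n = 3) over mutant arrays. The difference, frb1-1 minus wild type, was 1.64 with a standard error of 0.26 from limma, while the median difference over all 15218 probe sets was 0.01. Ordered by this difference AT5G66650 stood at rank 61, and 0.394% of the probe sets had a larger one. The spread within each genotype was therefore small beside the difference, although frb1-1 replicate 1 stood apart at the top of its group. Without that array the log2 difference was 1.48, and over the arrays left out in turn it ran from 1.48 to 1.77. In RNA of whole seedlings, more cells of a type that uses the gene and more transcript per cell cannot be told apart.

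**Figure D1:**
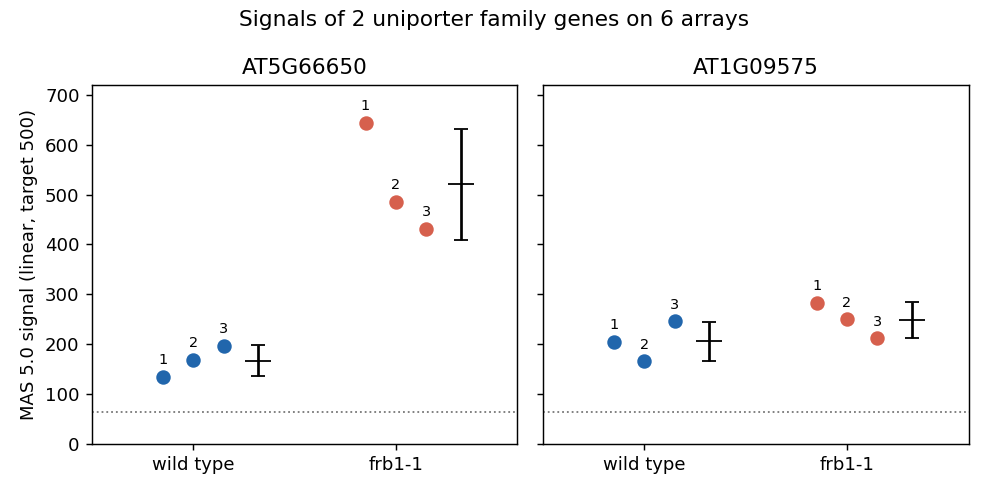
Signals of AT5G66650 and AT1G09575 (vertical axis, linear MAS 5.0 intensity) on the 3 wild-type (blue) and 3 frb1-1 (red) arrays, numbered by replicate; black marks show the mean and SD, and the dotted line the signal of 64. The frb1-1 signals of AT5G66650 (431 to 644) lie above all wild-type signals (134 to 196), while those of AT1G09575 overlap.

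AT1G09575, the other member with a named probe set, had overlapping groups. Replicates 1, 2 and 3 of the wild type had 205, 165 and 245, with a mean of 205 ± 40.1 (SD, n = 3). Those of frb1-1 had 283, 249 and 211, with a mean of 248 ± 35.9 (SD, n = 3). Wild-type replicate 3 was thus above frb1-1 replicate 3 and close to frb1-1 replicate 2. The ratio of the mean signals was 1.21. The log2 difference was 0.28 with a standard error of 0.26 from limma, and 18.8% of the probe sets had a larger one. It ran from 0.14 to 0.42 with each array left out in turn, the lowest without wild-type replicate 2.

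Thus 1 of the 2 members measured had groups that do not overlap, and it is the one for which the family was chosen. The genotypes were likewise apart for 10.9% of the probe sets tested, with frb1-1 higher in 6.26% and lower in 4.65%; nothing is read from this count, since the contrast chose the gene. Among the frb1-1 arrays both members had their highest signal on replicate 1 and their lowest on replicate 3. Among the wild-type arrays both had their highest on replicate 3. The difference between the genotypes was larger for AT5G66650 than for AT1G09575, 1.64 against 0.28 on the log2 scale. The levels of both genes cannot be set against each other, since each probe set has its own affinity.

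**Figure D2:**
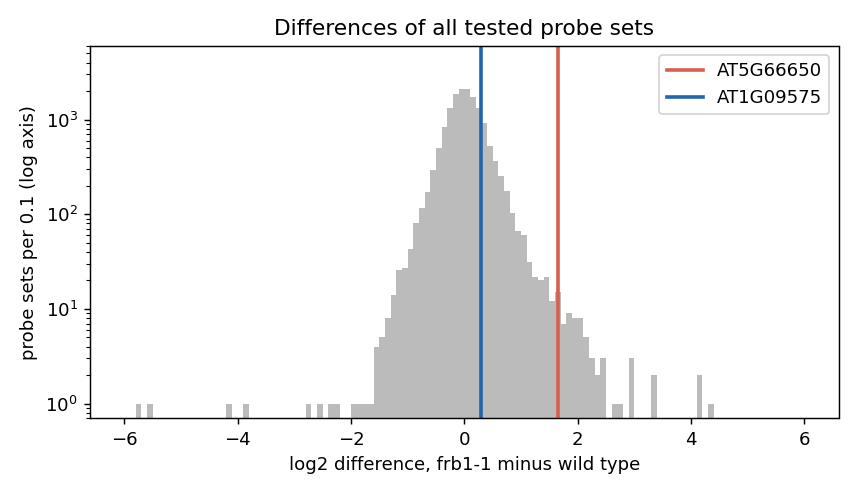
Number of probe sets (log axis) by log2 difference, frb1-1 minus wild type, in steps of 0.1 for the 15218 probe sets tested; vertical lines mark both uniporter family members. AT1G09575 (0.28) lies within the main body of values and AT5G66650 (1.64) in the upper tail, with 0.394% of the probe sets beyond it.

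Genes that act in the same pathway or in the same organelles were taken from 5 lists, which hold 98 genes. The annotation names a probe set for 28 of these, and 23 had enough signal to be tested. With limma and Benjamini-Hochberg adjustment over all 15218 probe sets, at a threshold of 0.05, none of the 23 was higher and none was lower in frb1-1 (3 at an unadjusted p under 0.05). The same rule called 0.368% of everything tested, 42 probe sets as higher (0.276%) and 14 as lower (0.0920%). The groups did not overlap for 8 of the 23 (34.8%), 5 with frb1-1 higher and 3 with it lower, beside 10.9%, 6.26% and 4.65% of everything tested. Among those 5, CML38, AT12CYS-2 and CML23 reached the minimum signal only through the mutant arrays, so that nothing is read from this share. The median log2 difference of the 23 was -0.04.

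Of 16 genes of calcium handling in mitochondria and chloroplasts, 5 were measured, all with positive log2 differences and a median of 0.17, and none passed the test (0 at an unadjusted p under 0.05). MICU (AT4G32060), the EF-hand regulator of the uniporter, had signals of 2991, 3006 and 2805 on the wild-type arrays in order of replicate, and of 6478, 3605 and 3142 on those of frb1-1. The groups did not overlap, but frb1-1 replicate 1 stood far above the other mutant arrays. The log2 difference of MICU was 0.51 (standard error 0.26, adjusted p = 0.941 from limma), and 0.20 without that array. NDB1, an NADPH dehydrogenase on the outer face of the inner mitochondrial membrane, had 0.32 (standard error 0.23, adjusted p = 0.996 from limma), also without overlap. At the low end was CAS, a calcium-binding protein of thylakoids, with 0.05 (standard error 0.18).

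Of 31 pumps, exchangers and channels that move calcium across other membranes, 3 were measured and none passed the test (0 at an unadjusted p under 0.05 in limma). GLR3.3, a glutamate receptor-like channel of wound signalling, was the highest with a log2 difference of 0.18 (standard error 0.32). GLR3.6, a channel of the same family, was the lowest with -0.30 (standard error 0.29). Its signals were 152, 162 and 144 in the wild type and 121, 132 and 119 in frb1-1, without overlap. The calcium pumps and exchangers of the list had no measured member, so that nothing is given about them.

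Of 22 calmodulins and calmodulin-like proteins, which sense calcium in the cell, 6 were measured and none passed the test (2 at an unadjusted p under 0.05 in limma, 1 in each direction). CML38 had signals of 28.8, 60.2 and 19.4 on the wild-type arrays and of 330, 186 and 132 on frb1-1 replicates 1, 2 and 3. The wild-type signals are near background, so that the fold is not exact, and the mutant arrays follow the same order as for AT5G66650. The log2 difference of CML38 was 2.64 (standard error 0.54, adjusted p = 0.0739 from limma), higher on 3 of 3 mutant arrays. CML38 reached the minimum mean signal of 64 only through the mutant arrays, so that its p is not read as support. Its adjusted p lay between 0.0231 and 0.350 over 12 alternative settings and was under the threshold in 4. CML23 had a log2 difference of 0.74 (standard error 0.46, adjusted p = 0.996 from limma), also without overlap and with wild-type signals of 51.3, 59.3 and 59.0. It too reached the minimum only through the mutant arrays. CML42 was the lowest of the list with -0.56 (standard error 0.22, adjusted p = 0.693 from limma), and its signals were 484, 624 and 522 in the wild type and 340, 375 and 385 in frb1-1.

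Genes known to respond to impaired mitochondria, with a pair of their NAC regulators, make up a list of 12, of which 3 were measured and none passed the test (1 at an unadjusted p under 0.05 in limma). The highest was AT12CYS-2 (AT5G09570), which encodes a small mitochondrial protein with a twin cysteine motif. In order of replicate its signals were 23.2, 49.3 and 101 in wild-type seedlings and 317, 172 and 293 in mutant seedlings. The groups did not overlap, and 2 of the wild-type signals lie below 64. On the wild-type arrays alone AT12CYS-2 would not have reached the minimum mean log2 signal, so that its p is not read as support. The log2 difference was 2.37 (standard error 0.52, adjusted p = 0.106 from limma), with an adjusted p between 0.0123 and 0.590 over 13 alternative settings, under the threshold in 4. HSP23.5, a small heat shock protein of mitochondria, was the lowest with -0.51 (standard error 0.35, adjusted p = 0.996 from limma), with signals of 124, 141 and 142 in the wild type and 120, 72.9 and 96.5 in frb1-1.

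A list of mitochondrial housekeeping genes holds 17 genes, of which 6 were measured, for cytochrome c, the tricarboxylic acid cycle, succinate dehydrogenase and a peroxiredoxin. The import and carrier genes of the list had no measured member. Of the 6, none passed the test (0 at an unadjusted p under 0.05 in limma), and all 6 had overlapping groups. Their log2 differences ran from -0.16 for CYTC-1 to 0.06 for CYTC-2, both of which encode cytochrome c, with a median of -0.08.

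**Figure D3:**
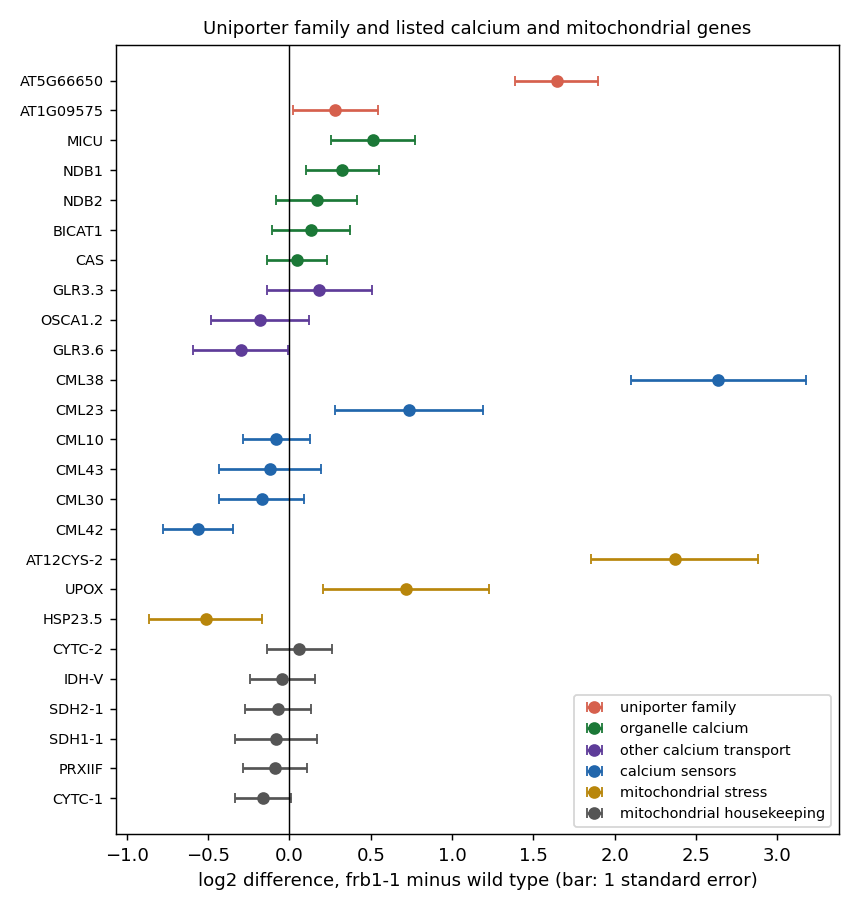
Log2 difference, frb1-1 minus wild type (horizontal axis, bars 1 standard error from limma, 3 arrays per genotype), of both uniporter family members and of the 23 measured genes of 5 lists, coloured by list. CML38 (2.64) and AT12CYS-2 (2.37) lie beyond AT5G66650 (1.64) with wider bars, and the mitochondrial housekeeping genes lie between -0.16 and 0.06.

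The neighbours of AT5G66650 on chromosome 5 were compared next. Of the 3 nearest protein-coding genes on each side with a probe set of their own, 4 had enough signal to be tested, and none was higher or lower (0 at an unadjusted p under 0.05 in limma). On the one side, AT5G66550, AT5G66560 and AT5G66590, which lie 13, 12 and 9 genes away, had log2 differences of 0.09, -0.43 and -0.46. On the other side, UGT72E2, which glucosylates precursors of lignin, lies 6 genes away and had -0.24. The closest, AT5G66660 and AT5G66670 at 2 and 3 genes, lay below the minimum signal, with mean signals of 41.1 and 25.2 in the wild type and 32.6 and 11.0 in frb1-1. The groups did not overlap for AT5G66560 only, which had the lower signals in frb1-1, as 4.65% of everything tested did without overlap. Each of the 4 tested neighbours had a smaller difference in size than AT5G66650, while 0.486% of everything tested had a larger one. Nothing is read from this, since AT5G66650 was chosen with its difference known.

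The profile of AT5G66650 over the 6 arrays was set beside those of 8214 other tested probe sets with 1 named gene. Each log2 signal was centred on its mean over the arrays, and likeness was measured as the root mean square distance to AT5G66650. The closest was APS4, an ATP sulfurylase of sulfate assimilation, at a distance of 0.19. It was followed by the pectin methylesterase AT4G02330 (ATPMEPCRB) at 0.26, the aspartic protease gene AT1G62290 at 0.28, the class III peroxidase gene AT5G64120 at 0.28 and AT1G47980, a desiccation-like protein gene, at 0.29. The median distance over all tested probe sets was 0.91, and that of AT1G09575 was 0.71. The signal of APS4 was 380, 535 and 473 in the wild type and 1351, 1336 and 1200 in frb1-1. All 5 had higher signals on each frb1-1 array than on any wild-type array, with log2 differences from 1.14 to 1.94, as their choice by this distance entails. For AT5G66650, replicate 1 was the highest of the mutant arrays and replicate 3 the lowest. This order was shared by APS4, AT4G02330 and AT1G62290 and not by AT5G64120 or AT1G47980. For APS4, replicates 1 and 2 were close. Nothing is read from the shared order, since the choice by distance favours it.

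**Figure D4:**
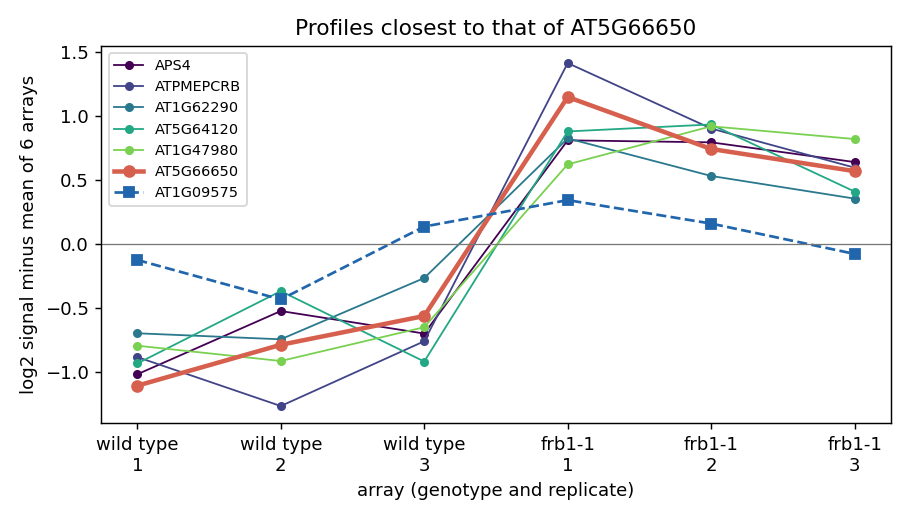
Log2 signal minus its mean over the 6 arrays (vertical axis) on each array (horizontal axis, genotype and replicate) for AT5G66650, the 5 closest profiles and AT1G09575; lines only join the values of a gene. AT5G66650 and its 5 closest genes are below 0 on all wild-type and above 0 on all frb1-1 arrays, while AT1G09575 crosses 0 within both genotypes.

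Within a genotype the log2 signals of all tested probe sets correlated from 0.918 to 0.972 between arrays, and between genotypes from 0.920 to 0.962. Markers of root hair cells were named for 2 of 4 genes, with summed signals of 954 to 1167 in the wild type and 956 to 1191 in frb1-1. Markers of seeds were named for 2 of 4 genes, CRA1 and OLEO2, both through the gene list of the study, which was chosen on these arrays. Their summed signals were 334 to 801 in the wild type and 4658 to 7738 in frb1-1, thus higher in frb1-1 as AT5G66650 was, and none was at 0. On frb1-1 replicates 1, 2 and 3 CRA1 had 3993, 4316 and 7232, and OLEO2 had 665, 631 and 506. OLEO2 thus shared the order of AT5G66650 among the mutant arrays, and CRA1 did not. The part of these seed markers in the result was not tested. Markers of green tissue and of pollen have no named probe set here, so that the label of whole seedlings was checked only in part.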

How the data were processed

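The authors hybridized RNA of 3 wild-type and 3 frb1-1 samples to Affymetrix ATH1 arrays and deposited linear signal intensities per probe set, computed with MAS 5.0 at a target of 500. Before their own comparison they dropped each probe set with an absent call on at least 1 replicate. Such calls were left aside here. All 22810 probe sets of the table entered the steps below.

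The 64 control probe sets were left out, and the 15218 whose log2 signals averaged 6 or more were fitted with limma 3.58.1 (R 4.3.3; lmFit and eBayes, the latter with a mean-variance trend), without further scaling or a pseudocount. P-values were adjusted over all of them by the Benjamini-Hochberg method. The fit was tested on simulated data. The number of arrays limits the precision. The trimmed mean signal was 500 on every array, with 2% left out at each end, and no arrays were identical.

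Gene names came from the platform annotation, which gives 1 symbol to 13513 probe sets, of which 13436 matched a locus of RefSeq (TAIR10.1), several to 503 and none to the rest. A gene with several probe sets was taken by the brightest. No coordinates are given, since no build is named for the arrays.

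The members and lists were chosen with earlier results of these data known. Named in the text are the family members, list genes past the threshold, those with the highest and lowest difference of each list, the 5 closest profiles and the 3 nearest neighbours on each side. NDB1 and CML23 fall outside the rule and were chosen with their values in view, as were CRA1 and OLEO2. Alternatives were median scaling, quantile normalization, a minimum mean log2 signal of 7 or none, a pseudocount of 32, a replicate block, no mean-variance trend, array weights and each array left out in turn.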

Additional observations from a re-analysis of the deposited data

How the results depend on the processing

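The log2 difference of AT5G66650 stayed positive under all alternatives run and lay between 1.47 (pseudocount of 32) and 1.77 (without wild-type replicate 3), and it was 1.48 to 1.77 with each array left out in turn. That of AT1G09575 stayed positive as well, from 0.14 to 0.43. Over all probe sets, 42 were higher and 14 lower. The higher count was 107 under the replicate block, 98 under array weights and 19 without the mean-variance trend, and the lower count was 31, 24 and 9. With a minimum mean log2 signal of 7 the lower count was 9. With each array left out in turn the higher count ran from 11 (without frb1-1 replicate 1) to 66 (without wild-type replicate 3) and the lower count from 5 (without wild-type replicate 1 or 2) to 16. Of the listed calcium and mitochondrial genes none was called, while 1 was higher with median scaling (CML38) and 2 were higher with array weights, the replicate block or the pseudocount of 32 (CML38 and AT12CYS-2). With each array left out this count was 0 to 1, AT12CYS-2 without wild-type replicate 3, and none was lower under any of these settings. The cause of these changes was not tested. Whether replicate numbers pair the arrays was not settled. Deviations of same-numbered arrays correlated at 0.04, 0.28 and 0.32, and 4 of 6 arrays were closest to their own number. CML38 had no value with the minimum of 7 or without frb1-1 replicate 1, where it fell below the minimum signal, and AT12CYS-2 none at the former.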
